A study of Gymnopus androsaceus with 9 samples.

Results

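The whole span of a litter-decay experiment was examined, by setting mycelium harvested at 10 months against mycelium harvested at 2 months. The comparison was made on reads unique to one gene, joined on JGI protein ID, and set 3 libraries against 3, 6 of the 9 libraries in all. The 5-month libraries entered the same fit for the estimate of spread. The fungus was Gymnopus androsaceus, grown alone on Scots pine needles mixed with sand in sealed microcosms. In every group the needles had been sterilised by gamma radiation, the inoculum was one needle colonised beforehand on nitrogen-free agar, and an ammonium chloride solution had been added at the start, so the comparison says nothing of litter with its natural microbes. The groups differed in time on the litter, and the labels call the 3 libraries of a harvest biological replicates. No strain or sequencing batch was named in the labels, and more microcosms were harvested at each time than libraries were given.

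Gymnopus androsaceus, the horsehair fungus, is an agaric that lives on shed conifer needles. Litter-decomposing basidiomycetes secrete hydrolases that cut cellulose and hemicellulose, together with oxidative enzymes that act on lignin, and they take up the sugars and nitrogen released. As a needle decays its chemical make-up changes, and the hyphae themselves age, so a late harvest can differ from an early one in substrate and in the state of the mycelium. The deposited tables give protein IDs without gene names or products, so what the individual genes encode is not stated here, and the labelled tissue could not be checked against marker genes. Given by ID are the 2 largest rises and the 2 largest falls in mean CPM among called genes that met the criteria for naming, and the gene with the most reads. Larger fold changes occur among genes with fewer reads, which are given as counts and ranges.

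The 2-month libraries held 21939600 to 51907213 unique reads and the 10-month libraries 60591632 to 96533143. Of the 29375 genes listed, 20168 passed the low-count filter and were tested, and 9207 were set aside. Some libraries stood apart. A group of 6 genes varied together, the most abundant gene among them. They took 24.9% of unique reads in 2-month replicate 2, 17.2% in 10-month replicate 1 and 31.9% in 10-month replicate 2. In the other 2-month libraries these genes took 6.84% and 3.35%, and in 10-month replicate 3 they took 1.24%. Results are therefore also given without the 3 libraries in which the share exceeded 10%, a fit that keeps a single 10-month library and assumes that it varies like the others.

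Over the whole period 6685 genes changed, 33.1% of those tested, by edgeR's quasi-likelihood test with Benjamini-Hochberg adjustment, where a call is an adjusted p under 0.05. Of these, 3532 genes (17.5%) rose and 3153 (15.6%) fell. In the same fit 20.7% of genes were called at 5 against 2 months and 18.1% at 10 against 5 months. These comparisons share libraries with this one, and the difference in their counts was not tested. In bulk mycelium, fewer cells of a type and less RNA per cell cannot be told apart. In the main fit the rising side reached further: among the 3919 called genes (19.4% of those tested) with a change of at least 2-fold, 863 rose at least 4-fold and 430 fell as much, 187 rose and 45 fell at least 16-fold, and 60 rose and 10 fell at least 64-fold. The 75th percentile of the rises was a log2 fold change of 1.98, and the 25th percentile of the falls was -1.48. Rises of at least 16-fold outnumbered falls of that size under the other scalings too, at 174 to 54 with upper-quartile scaling and 136 to 69 with library totals. The smaller sizes turned with the scaling: at least 2-fold changes were 1989 up and 2007 down with upper-quartile scaling and 1328 up and 3600 down with library totals, and at least 4-fold changes were 616 up and 710 down with library totals. Without the 3 libraries rich in the 6 genes, 2212 genes were called, 1524 higher and 688 lower. Of the genes called with all libraries, 2151 (32.2%) were called again in the same direction. In that fit the median log2 fold change of the genes first called higher was 1.17, against 1.24 with all libraries, and that of the genes first called lower was -0.99, against -1.03. The libraries kept had also served to choose these genes, so the likeness of these medians is not an independent check.

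**Figure D1:**
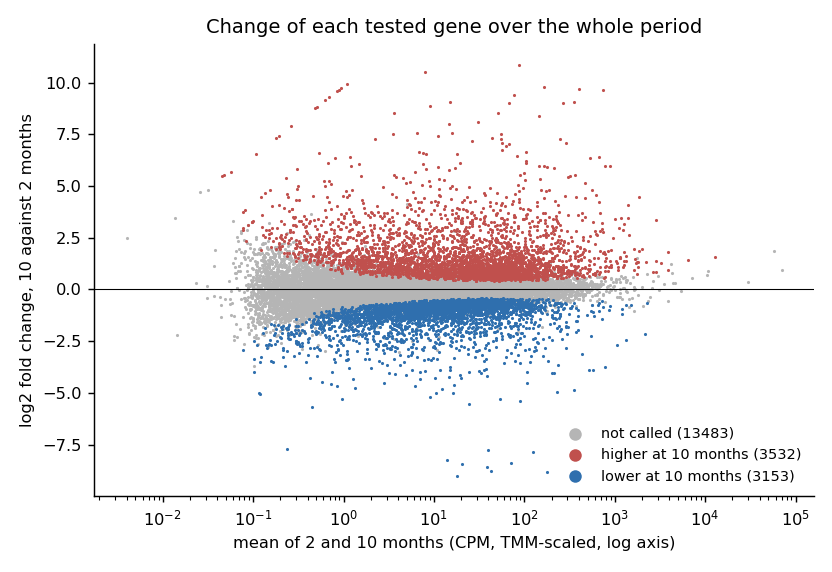
Each point is 1 of the 20168 tested genes, with the mean of both harvests in CPM (TMM-scaled, log axis) on the x axis and the log2 fold change of 10 against 2 months on the y axis. Points are coloured by call: 3532 higher, 3153 lower and 13483 not called. The grey band is widest at low CPM, where the fitted error is largest.

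For most called genes the 2 harvests did not overlap, as a call made on these same libraries makes likely. The 10-month libraries all lay above the 2-month libraries in 3457 of the genes that rose, and below them in 3000 of the genes that fell. Of all genes tested, 23.6% were separated upward and 22.3% downward, 45.9% in both directions together. A clear gap was rarer. The lowest 10-month library was at least 2-fold above the highest 2-month library in 1139 rising genes and at least 4-fold above it in 437. Among the falling genes a gap of at least 2-fold was present in 566 and of at least 4-fold in 131. Each 10-month library carried the change to a like degree. For the genes that rose, the median difference from the 2-month mean on log2(CPM + 0.5) was 0.99, 1.19 and 1.02 in 10-month replicates 1, 2 and 3. For the genes that fell it was -0.83, -0.99 and -0.86. In 10-month replicate 2, the library with the most reads in the 6 genes, both medians lay farthest from 0. These genes were chosen on the same values, so the medians describe evenness between libraries and test nothing.

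A smaller core of genes did not rest on any single library. When each 2-month or 10-month library was left out in turn, 4265 genes (63.8% of those called) were called in the same direction every time, 2398 higher and 1867 lower. Their median log2 fold changes were 1.49 and -1.22. One direction turned in these fits, that of 1 gene called lower, when 2-month replicate 1 was left out.

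The precision of the comparison depended on how many reads a gene had. The median SE of the log2 fold change was 0.55 for genes under 1 CPM, 0.28 from 1 to 10 CPM, 0.19 from 10 to 100 CPM, 0.21 from 100 to 1000 CPM and 0.28 above that. The share of genes called was, in the same order, 13.9%, 32.7%, 40.2%, 42.9% and 48.1%. A rare gene had to change more to be called: the smallest 5% of called changes lay below a log2 size of 1.16 under 1 CPM and below 0.52 from 10 to 100 CPM. Of the 13483 genes that were not called, 7693 (57.1%) had a 95% interval that lay wholly within a 2-fold change either way, from the log2 fold change and its SE. For the other 5790 the data do not place the change within 2-fold, so they are not shown to be steady. Among called genes, 1122 of those that rose (31.8%) and 554 of those that fell (17.6%) had an interval wholly beyond 2-fold.

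Direction varied with the read level of the gene. Genes with more than 1000 CPM were called higher in 42 cases and lower in 8, and those from 100 to 1000 CPM in 544 and 204. From 10 to 100 CPM 1722 rose and 1506 fell, from 1 to 10 CPM 927 rose and 1208 fell, and under 1 CPM 297 rose and 227 fell. These classes use CPM, which is not divided by transcript length. The lean of the top class to higher calls held with every other scaling run, at 40 to 11 with upper-quartile scaling and 30 to 18 with library totals, and without the 3 libraries rich in the 6 genes, at 24 to 3. The class from 100 to 1000 CPM kept it with upper-quartile scaling, at 492 to 246, but turned with library totals, at 292 to 340. The balance from 10 to 100 CPM turned with upper-quartile scaling, at 1484 to 1872, and with library totals, at 730 to 2364. Under 1 CPM it also turned with both, at 259 to 278 and 166 to 467. From 1 to 10 CPM more genes were lower under every scaling with all libraries kept. Without the 3 libraries the balance of calls in this class turned to higher, in a fit with a single 10-month library. The median log2 fold change of this class was -0.11 relative to all tested genes, and -0.07 without the 3 libraries. The balance of all called genes moved with the scaling too. It went from 52.8% higher in the main fit to 44.3% with upper-quartile scaling and 24.9% with library totals. Relative to the median of all tested genes, the median log2 fold change of the top class was 0.67, with 0.62 to 0.67 under the other scalings and 0.41 without the 3 libraries.

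**Figure D2:**
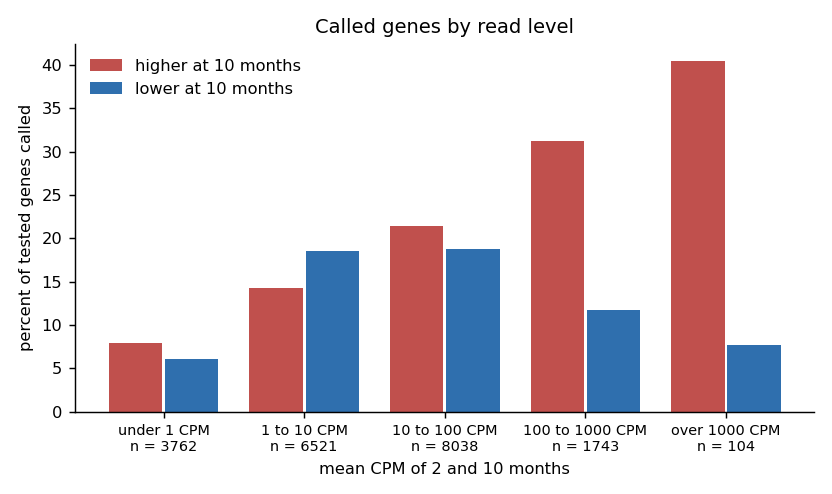
Bars give the percent of tested genes called higher (red) or lower (blue) at 10 months in 5 classes of mean CPM over both harvests, with the number of tested genes under each class. In the main fit the red bar is the taller one in every class except 1 to 10 CPM, where 1208 genes were lower and 927 higher. The balance under 1 CPM and between 10 and 1000 CPM turns under other scalings.

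The genes that changed also took different shares of the read pool. The genes called higher took 18.9%, 14.1% and 17.9% of unique reads in 2-month replicates 1, 2 and 3, and 32.5%, 31.7% and 40.5% in the 10-month replicates. The means were 17.0% ± 2.50 and 34.9% ± 4.88 (SD, n = 3 each). The genes called lower took 16.2%, 14.8% and 18.2% at 2 months and 6.11%, 3.78% and 6.92% at 10 months, with means of 16.4% ± 1.70 and 5.60% ± 1.63 (SD, n = 3 each). The shares of both classes were without overlap between the harvests, as their choice makes likely, and no test is given. At 5 months the same genes stood between, at 29.8% ± 1.60 and 11.9% ± 0.71 (SD, n = 3 each). Genes that were not called held 66.6% ± 3.86 (SD, n = 3) of the 2-month reads and 59.5% ± 6.22 (SD, n = 3) of the 10-month reads, and these include the 6 genes that vary together. The summed change lay in few genes, as did the read pool itself. With all genes counted, 50% of unique reads lay in a mean of 592 genes at 2 months and 369 at 10 months. Sums in CPM are weighted to abundant genes, so they are not read as a trait of the shift. Of the summed gain in TMM-scaled CPM, 50% came from 108 of the 3532 genes that rose, and 15.3% came from 10 genes. Of the summed loss, 50% came from 132 of the 3153 genes that fell, and 15.2% from 10 genes.

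**Figure D3:**
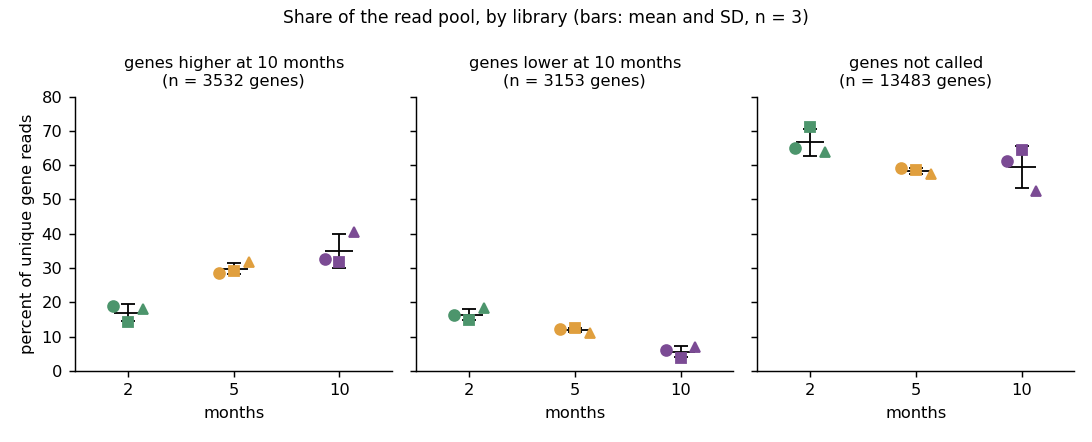
Points give the percent of unique gene reads taken in each library by genes called higher, genes called lower and genes not called, at 2, 5 and 10 months; circles, squares and triangles are replicates 1, 2 and 3, and bars are the mean and SD of 3 libraries. The share of the genes called higher goes from a mean of 17.0% to 34.9%, and that of the genes called lower from 16.4% to 5.60%.

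Among all genes that met the criteria for naming, the largest rise in CPM was that of ID 127396, with an implied transcript length of 1074 bases. It stood at 5224, 6032 and 8579 CPM in 2-month replicates 1, 2 and 3, and at 12475, 26275 and 19362 CPM in the 10-month replicates. Every 10-month library was above every 2-month library. The means were 6611 ± 1751 and 19371 ± 6900 CPM (SD, n = 3 each), which makes a log2 fold change of 1.55 ± 0.33 (SE; edgeR, adjusted p = 0.00315). At 5 months it stood at 8899 ± 1578 CPM (SD, n = 3), a log2 difference of 0.43 from 2 months (edgeR, adjusted p = 0.368) and of 1.12 up to 10 months (adjusted p = 0.0307).

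The next largest rise was that of ID 939561, of 1902 bases. Its 2-month libraries held 5441, 2946 and 2095 CPM and its 10-month libraries 8671, 9288 and 10062 CPM. The 10-month values lay close together, while 2-month replicate 1 stood well above the other 2-month libraries. By edgeR it rose by a log2 fold change of 1.42 ± 0.32 (SE, adjusted p = 0.00484), or 1.89 without 2-month replicate 1. The call was lost without the 3 libraries rich in the 6 genes (log2 fold change 1.41, edgeR adjusted p = 0.103). At 5 months it already stood at 7096 ± 249 CPM (SD, n = 3), with a log2 difference of 1.02 from 2 months (edgeR, adjusted p = 0.0387) and of 0.40 from there to 10 months (adjusted p = 0.422).

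The largest fall in CPM was that of ID 656300, a short transcript of 571 bases. It went from 2624, 4043 and 3882 CPM in the 2-month libraries to 846, 647 and 905 CPM in the 10-month libraries, with no overlap. The fitted log2 fold change was -2.14 ± 0.35 (SE; edgeR, adjusted p = 0.000626). Without the 3 libraries it was -1.85 and no longer called (adjusted p = 0.0914). Its 5-month libraries were spread, at 2715, 3045 and 1124 CPM, so that 2 of them lay within the range of the 2-month libraries and 1 lay near the 10-month level.

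ID 1023075, of 2245 bases, showed the second largest fall and had the smallest SE among the named genes. Its 2-month libraries held 2000, 2346 and 2462 CPM, its 5-month libraries 924, 938 and 908 CPM and its 10-month libraries 311, 433 and 492 CPM. No harvest overlapped with another. Over the whole period its log2 fold change was -2.46 ± 0.23 (SE; edgeR, adjusted p = 8.7e-06). It was -1.30 from 2 to 5 months (adjusted p = 0.00152) and -1.16 from 5 to 10 months (adjusted p = 0.00307). Divided by length, the mean level of this gene went from 1011 to 183 CPM per kilobase and that of ID 656300 from 6158 to 1399. ID 127396 went from 6156 to 18036 CPM per kilobase and ID 939561 from 1837 to 4911.

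The gene with the highest CPM at both harvests, ID 507124, belongs to the 6 that vary together and was not called. It held 25082, 106168 and 12734 CPM in the 2-month libraries and 76794, 196234 and 4245 CPM in the 10-month libraries. The lowest of these 6 values and the highest were both at 10 months. The fitted log2 fold change of 0.95 ± 1.12 (SE) had a 95% interval from -1.58 to 3.47 (edgeR, adjusted p = 0.555). The 3 libraries rich in the 6 genes were picked out by the level of this gene and its partners, so a fit without them says nothing of its direction. None of the 6 genes was called, with log2 fold changes of 0.34 to 1.84 and adjusted p of 0.240 to 0.846 by edgeR. None had harvests without overlap. Of all tested genes, 33.1% were called and 45.9% had no overlap. The 6 were picked by their correlation with ID 507124 over these same libraries. Their likeness to it thus follows from the choice, and they are not 6 separate results.

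**Figure D4:**
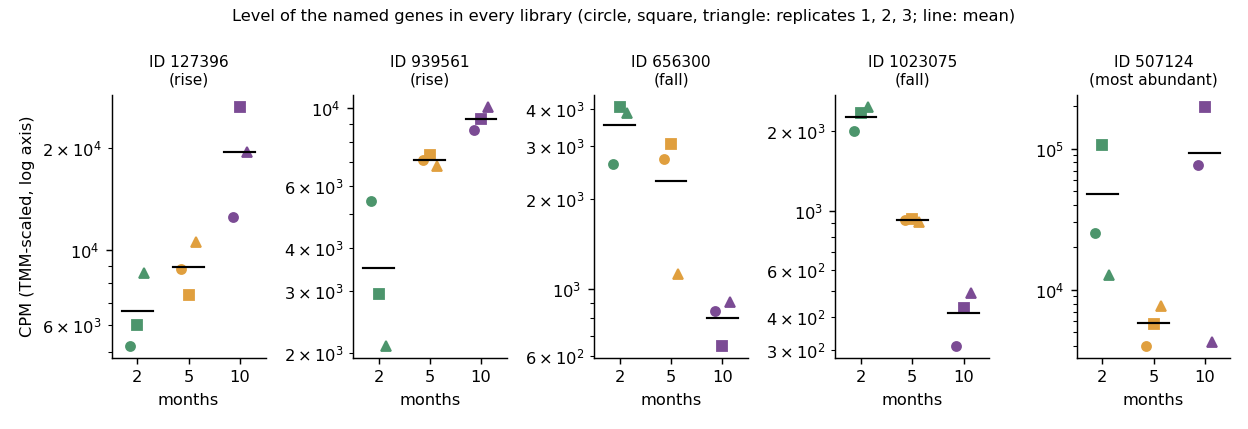
Each panel gives the CPM (TMM-scaled, log axis with its own range) of a named gene in every library at 2, 5 and 10 months; circles, squares and triangles are replicates 1, 2 and 3 and the line is the mean of 3. Both genes that rose and both that fell have no overlap between 2 and 10 months, whereas ID 507124 spans 4245 to 196234 CPM within the 10-month libraries.

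Some genes were near the limit of detection at one end of the period and well above it at the other. In 25 genes every 2-month library was under 1 CPM and every 10-month library at 10 CPM or more. Their summed level was 7.77, 8.38 and 9.30 CPM in the 2-month libraries and 1137, 1936 and 1675 CPM in the 10-month libraries. All 25 were among the genes that rose, as such a gap all but requires. At 5 months 11 of them had a mean of at least 10 CPM, 10 lay between 1 and 10 CPM and 4 were under 1 CPM. Their summed 5-month level was 480, 502 and 1058 CPM in replicates 1, 2 and 3, so replicate 3 was the highest. Their median length was 714 bases (276 to 1737), and 1 of them shared over 20% of its reads with other genes.

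The opposite pattern was seen in 8 genes, which held 738, 415 and 351 CPM together in the 2-month libraries and 2.17, 2.34 and 1.85 CPM in the 10-month libraries. All 8 were called lower, which such a gap again all but requires. Their summed level was already down to 25.4, 10.0 and 12.6 CPM in the 5-month libraries, and 5 of the 8 had a 5-month mean under 1 CPM. Of these 8 genes, 4 shared over 20% of their reads with other genes, so their levels are uncertain. Among called genes as a whole that share was 4.70% of the genes that rose and 3.87% of those that fell, against 4.92% of the genes not called.

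Genes without any unique read at 2 months could only be given a lower bound. There were 6746 such genes listed, of which 1562 had reads at 10 months. Of the 6746, 19 passed the low-count filter. They could do so only through later harvests, so that most of those tested had to differ. Of the 19, 15 were called higher, with 20 to 389 reads over the 10-month libraries. Against a floor of 3 reads over the 2-month libraries together, or 0.0265 TMM-scaled CPM, which covers counting error only, they were at least 3.95-fold to at least 76.8-fold higher at 10 months, with a median bound of 35.1. All 15 had reads at 5 months. A single gene without reads at 10 months was tested and called lower, and it stood at 0.474 CPM at 2 months.

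The most abundant transcripts per unit of length were partly exchanged. Of the 100 genes with the highest CPM per kilobase at 2 months, 60 were also among the 100 highest at 10 months. Of the 40 found only in the 10-month list, all rose, by a median log2 fold change of 2.61. Their share of unique reads went from 1.57% ± 0.35 to 5.50% ± 0.79 (SD, n = 3 each). Of the 40 found only in the 2-month list, 20 fell and 20 were not called, with a median log2 fold change of -0.74. They went from 4.62% ± 0.73 to 2.03% ± 0.58 of unique reads (SD, n = 3 each). Among the 60 genes on both lists, 12 rose, 1 fell and 47 were not called. A gene enters a list by being high at that harvest, so these directions are partly set by the choice of genes and are given as a description.

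Transcript lengths were taken from the authors' RPKM values, which imply them. The median was 1202 bases for genes that rose, 1269 for genes that fell and 1042 for genes not called, whose reads were also fewer, at a median of 6.32 CPM against 23.4 and 12.1. The extremes of length leaned in different ways. Of 380 tested genes over 4000 bases, 39 rose (10.3%) and 83 fell (21.8%), against 17.5% and 15.6% of all tested genes. This lean depended on read level. From 1 to 10 CPM 5 of these long genes rose and 12 fell, and from 10 to 100 CPM 20 rose and 62 fell. From 100 to 1000 CPM they went the other way, with 14 that rose and 6 that fell. Of 2299 tested genes under 500 bases, 315 rose (13.7%) and 198 fell (8.61%), both shares being below those of all genes. The lean of the long genes to lower levels was also found with upper-quartile scaling, at 32 to 107, and with library totals, at 12 to 133. Relative to all tested genes, the median log2 fold change of the long genes was -0.17 in the main fit. It was nearer to that of all genes, at -0.04, without the 3 libraries rich in the 6 genes. The short genes called higher and lower numbered 276 and 256 with upper-quartile scaling, and 173 and 394 with library totals. The share of them that was higher was 61.4% in the main fit, 51.9% with upper-quartile scaling and 30.5% with library totals. Each of these shares lay above that of all called genes in the same fit. The median log2 fold change of the short genes was 0.01 relative to all tested genes, and -0.02 without the 3 libraries.

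Once the 6 genes were set aside, every 10-month library held 50% of its unique reads in fewer genes than any 2-month library did. The 6 genes were picked from these same libraries, and the difference did not pass the test given below. Without the 6 genes, 50% of unique reads lay in 889, 906 and 790 genes in the 2-month libraries. In the 10-month libraries they lay in 719, 519 and 637 genes. The groups did not overlap, at 862 ± 62.6 against 625 ± 101 genes (SD, n = 3 each). A two-sided exact permutation test gave p = 0.1, the smallest that 3 against 3 libraries allow, or 0.533 adjusted over the 8 library measures compared. With the 6 genes included the counts were 724, 331 and 720 against 391, 97 and 619, and the harvests overlapped (exact permutation p = 0.3). Unique reads were found for 21197 ± 597 genes at 2 months and for 22116 ± 422 at 10 months (SD, n = 3 each, exact permutation p = 0.2). When all libraries were thinned to the depth of the shallowest, these became 20920 ± 304 and 21048 ± 290 (SD, n = 3 each, exact permutation p = 0.6). Of total gene reads, 1.64% ± 0.19 at 2 months and 1.64% ± 0.42 at 10 months were not unique to one gene (SD, n = 3 each).

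**Figure D5:**
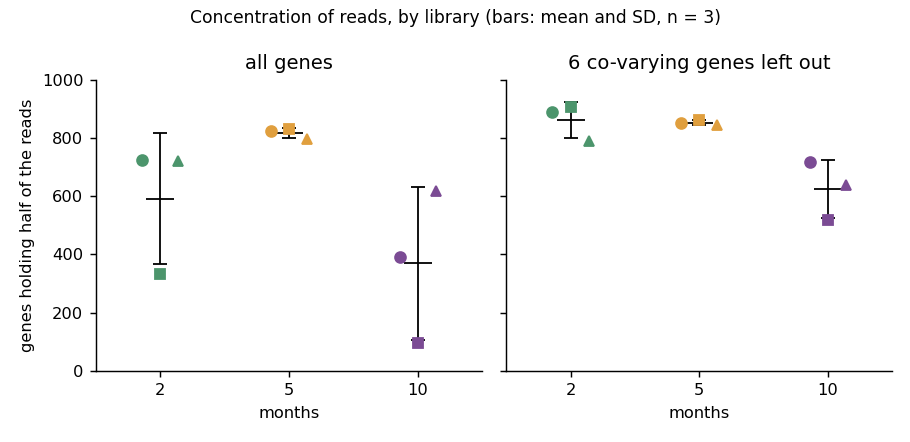
Points give the number of genes that together hold 50% of unique gene reads in each library, with all genes (left) and with the 6 co-varying genes left out (right), at 2, 5 and 10 months; circles, squares and triangles are replicates 1, 2 and 3 and bars are the mean and SD of 3 libraries. With the 6 genes left out, the 10-month libraries (519 to 719 genes) lie below the 2-month libraries (790 to 906 genes).

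At 5 months the called genes as a whole stood between the ends. For the genes that rose, the median over genes of the mean log2(CPM + 0.5) was 3.64, 4.34 and 5.03 in order of harvest. It was 4.03, 3.44 and 2.96 for the genes that fell, and 2.75, 2.80 and 2.73 for the genes not called. The ends were used to choose the genes, which by itself favours a middle position for the harvest left out. The typical spread between replicates of one harvest, as the median SD on the same log2 scale over the genes not called, was 0.27, 0.20 and 0.18 in the same order.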

How the data were processed

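The authors deposited one table per library that holds, per JGI protein ID, 2 read counts (reads unique to the gene, and all its reads) and RPKM, per the file headers. No source used here names the aligner, counting tool, genome build or annotation. The deposited RPKM values equal total gene reads over transcript length and library total: implied lengths lay within 0.01 bases of a whole number for 25486 genes, the same in every library.

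Tests on unique gene reads used edgeR 4.0.16 under R 4.3.3 (TMM scaling, filterByExpr, robust quasi-likelihood fit, Benjamini-Hochberg adjustment at 0.05). All 9 libraries entered one fit, giving 6 residual degrees of freedom. The SE is the log2 fold change over the square root of F, and 95% intervals use the t distribution. CPM values are TMM-scaled; percent shares are not. A floor is 3 reads summed over a harvest's libraries and covers counting error only. Named genes were the 2 largest rises and the 2 largest falls in mean CPM among called genes that stayed called without each 2-month or 10-month library, did not overlap and shared under 20% of reads, plus the most abundant gene. The 6 genes, which include the most abundant one, have a mean over 1 CPM and correlate with it over 0.95 on log2(CPM + 0.5). For this choice alone, CPM was taken on library totals without TMM scaling. The scripts were tested on simulated data. Members, rules and lists were chosen with earlier results of these data known. Alternatives were other scalings, other low-count filters, limma voom 3.58.1, DESeq2 1.42.0, both harvests fitted alone, a replicate block, libraries left out, total gene reads, thinned libraries, the 6 genes left out and a test against a 2-fold minimum. Tables and figures used Python 3.11.15, pandas 2.3.3, numpy 2.4.6, scipy 1.17.1 and matplotlib 3.10.9. Labels do not say whether replicates shared an inoculum plate, so p-values measure the spread between these libraries.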

Additional observations from a re-analysis of the deposited data

How the results depend on the processing

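Changed genes numbered 4998 to 6775 when each library was left out in turn, against 6685 with all, with 2764 to 3595 higher, 2234 to 3180 lower and 3281 to 4079 changed at least 2-fold, against 3919 (19.4% of tested genes). Without the 3 libraries rich in the 6 genes, 2212 genes changed, 1524 higher and 688 lower, and 2138 by at least 2-fold; that fit has a single 10-month library, so those libraries and the smaller number cannot be told apart. Library totals gave 1687 higher and 5100 lower (24.9% higher against 52.8%) and shifted the all-gene median log2 fold change to -0.43; upper-quartile scaling gave 3074 and 3867 (44.3% higher) and shifted it to -0.13. A filter of 10 CPM in 3 libraries, which tests fewer genes, gave 2345 higher genes and 2129 changed at least 2-fold. A test against a 2-fold minimum called 1437. DESeq2 called 7484 genes, limma voom 6556 and both harvests alone 6026. Replicate number as a block called 5686; the block changed no call of a named gene. Same-numbered libraries of both harvests correlated in their deviations at -0.090, 0.041 and 0.12, so the numbers were not taken as pairs. ID 507124 stood at -2.16 without the 3 libraries, but these were picked out by the level of this gene and its partners, so the turn follows from the choice and is not read as a change of direction. The difference in genes with a read was 919 at own depth and 128 at one depth. Depth limits genes under 1 CPM most.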

Other observations

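Genes seen at only one end of the period were mostly rare, and their number followed depth. At the libraries' own depth, 1562 listed genes had unique reads at 10 months and none at 2 months, and 653 had the reverse. The 10-month libraries together held 238789150 unique reads and the 2-month libraries 104052781. With every library thinned to the depth of the shallowest, the counts were 859 and 786. A stricter form also narrowed with depth. At own depth 123 genes had a read in all 3 10-month libraries and none at 2 months, and 4 had the reverse. In the thinned libraries these counts were 71 and 34. With at least 3 reads in each library they were 35 and 1 at own depth, and 19 and 3 after thinning. No test was made of these counts.

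Large changes without a call were found in 90 genes, with a fitted change of at least 4-fold and an adjusted p over the threshold (edgeR). Of these, 45 were higher and 45 lower at 10 months, 45 had overlapping harvests, and 6 had at least 10 CPM on average.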
